A study of Mus musculus with 19 samples.

Results

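Matrix metalloproteinases and their inhibitors were followed in the blood leukocytes of DBA/2 and B6 mice with vasculitis induced by CAWS, the water-soluble fraction of Candida albicans. Every probe that carried the name of Mmp8, Mmp9, Mmp12, Mmp14, Mmp19, Mmp25, Timp1, Timp2 or Timp3 was taken, which gave 12 probes of 9 genes among 41174 probes of 27745 named genes. Probes of 8 of the 9 genes, 9 probes in all, were well above background in at least 2 samples and could be tested. Mmp12 was not. Male DBA/2 mice, in which CAWS is lethal, and male B6 (C57BL/6J) mice, in which disease is mild, all received CAWS intraperitoneally on 5 consecutive days. Blood was taken right after the last injection (0 w) or, from mice that had survived, when they were sacrificed at 2, 4, 8 or 9 w, so that the weeks hold different mice, and leukocytes were caught on a LeukoLOCK filter. DBA/2 mice gave 2 samples at each of the 5 weeks, while B6 mice gave 2 samples at 0 w, 4 w and 8 w and 1 sample at 2 w and at 9 w. No array of a mouse without CAWS was used here, and the mice, whose age the study gives as one range for all, grew older along with the weeks, so that age and time since CAWS administration cannot be told apart.

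Matrix metalloproteinases are zinc-dependent enzymes that cut collagen, elastin and other proteins of the extracellular matrix, and tissue inhibitors of metalloproteinases (Timps) block them by binding the active site. Mmp8 (neutrophil collagenase), Mmp9 (gelatinase B) and Mmp25 (leukolysin, held at the cell membrane) are known products of neutrophils, and Mmp9 is also made by monocytes and macrophages. Mmp12 is the elastase of macrophages, Mmp14 is a membrane-bound collagenase, and Mmp19 is a secreted enzyme of broad specificity. In diseased arteries these enzymes are known for breaking down the elastic and collagen layers of the wall.

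The start sites of Mmp8 and Mmp25, both neutrophil enzymes, and of Timp2, the inhibitor whose change differed most between the strains, are shown to let their sequences be compared. RefSeq (GRCm38.p6) listed a promoter, 250 bases before to 50 after the gene start, for 7 of the 9 genes. That of Mmp8 lies at chr9:7558179-7558478 on the plus strand, that of Mmp25 at chr17:23645220-23645519 on the minus strand and that of Timp2 at chr11:118355362-118355661 on the minus strand. They are given 5′ to 3′, with every match to 1 of 5 motifs in capitals, and both strands were searched.
Mmp8: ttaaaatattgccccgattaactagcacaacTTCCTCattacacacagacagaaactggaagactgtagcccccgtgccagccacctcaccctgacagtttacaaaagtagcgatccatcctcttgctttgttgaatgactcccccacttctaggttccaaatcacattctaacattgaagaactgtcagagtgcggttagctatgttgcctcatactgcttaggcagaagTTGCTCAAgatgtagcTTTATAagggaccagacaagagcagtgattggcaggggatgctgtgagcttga
Mmp25: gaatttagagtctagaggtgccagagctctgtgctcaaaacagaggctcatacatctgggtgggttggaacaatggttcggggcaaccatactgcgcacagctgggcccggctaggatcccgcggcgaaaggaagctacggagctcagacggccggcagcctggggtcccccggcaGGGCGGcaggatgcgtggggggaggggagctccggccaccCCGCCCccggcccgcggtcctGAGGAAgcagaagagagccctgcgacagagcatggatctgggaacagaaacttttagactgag
Timp2: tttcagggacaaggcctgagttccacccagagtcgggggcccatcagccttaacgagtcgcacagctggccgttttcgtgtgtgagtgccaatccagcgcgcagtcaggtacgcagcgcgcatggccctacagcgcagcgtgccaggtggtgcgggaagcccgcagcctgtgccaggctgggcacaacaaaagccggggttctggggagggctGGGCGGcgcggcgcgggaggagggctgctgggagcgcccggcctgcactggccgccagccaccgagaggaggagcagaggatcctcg
The motifs were AP-1 (TGANTCA), C/EBP (TTGCNNAA), the PU.1 core (GAGGAA), the GC box (GGGCGG) and the TATA box (TATAAA). Of all 32851 listed promoters, 7.81% held the AP-1 letters, 10.8% those of C/EBP, 28.3% the PU.1 core, 35.7% the GC box and 13.6% the TATA box. The Mmp8 window held the PU.1 core, the C/EBP letters and the TATA box, none of which overlapped another. The Mmp25 window held the PU.1 core and GC boxes on both strands, while in that of Timp2 the only match was a GC box. Such matches describe the letters and are not shown to be sites.

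Levels are given as scaled signal, the processed spot brightness after each array was brought to the same 75th percentile. Because probes differ in how brightly they bind, a level is compared only with other levels of the same probe. Between 33.9% and 51.4% of the spots of an array were well above background. The paired B6 samples stood unusually close to each other: the SD of their log2 difference over 11536 probes was 0.22, 0.23 and 0.26 for the 0, 4 and 8 w pairs, against 0.24 between 2 arrays of one RNA. In DBA/2 mice it lay between 0.32 and 0.41. One label of DBA/2 2 w replicate 2 calls it a technical replicate, while its title gives it as the second sample, and the SD of that pair was 0.32. The labels call them biological replicates without naming the mice, so p-values may measure technical spread there, and each B6 result was also computed with each B6 week counted as 1 sample. Signal of hepatocyte marker genes was high in some B6 groups. Its sum was 19298 and 19700 in the B6 0 w samples, 11320 and 11735 at 8 w, and no more than 673 in any other sample of either strain. Its part in the results below was not tested. DBA/2 9 w replicate 2 had 1187 outlier spots, against 64 to 180 on the other arrays. Replicates 1 were scanned on one day and replicates 2 on another.

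Mmp8 and Mmp9 rose in both strains. Relative to 0 w, the mean of 4 w and 8 w was higher for 6 of the 9 probes in DBA/2 mice and lower for none, against 22.9% of all 22936 probes called in either direction (limma, adjusted p under 0.05, which is what called means throughout). The 6 were Mmp8, both Mmp9 probes, Mmp14, Mmp25 and Timp2. Mmp14 and Mmp25 passed the filter only through samples of 4 w or later, so their calls lend these counts no support. In B6 mice 5 probes were higher, those of Mmp8, Mmp9, Mmp19 and Mmp25, and Timp2 was lower, against 15.0% of all probes. A filter that asked for 9 samples left Mmp14 and Mmp25 out. Of the 7 probes then tested, 5 were higher in DBA/2 mice, and 4 were higher and 1 lower in B6 mice. Over all 17855 probes of that fit, 5459 and 3688 were called. With each B6 week counted as 1 sample, the B6 count was 2 (Mmp8 and the Mmp9 probe with the brighter signal). Under normexp, a model-based background correction of the spot means, 1 probe was higher and none lower in B6 mice, and 3 were higher and 3 lower when spots whose background exceeded their signal were left out of it, one of the latter being Mmp25 (-0.25, adjusted p = 0.00381). In both strains the middle one of the 9 probes was Mmp14, which was well above background in no 0 w sample. Its DBA/2 change has a bound of 1.35-fold, and its B6 change was not called (limma, adjusted p = 0.256). The median change of the 9 probes was thus 1.32 on the log2 scale in DBA/2 mice and 0.63 in B6 mice. Over all probes the median was -0.14 and -0.08. What follows concerns the median of the member probes. It depended on which dim probes were kept and on the background, being 0.50 and 0.20 over all 12 probes, 0.78 and 0.55 over the 7 that passed in 9 samples, 0.18 and -0.14 under normexp and 0.29 and -0.14 under its other form, where the medians over all probes were -0.10 and -0.32, and -0.02 and -0.25. In such samples of mixed cells, more cells of a type and more RNA per cell cannot be told apart.

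Week by week, 6 probes were higher in DBA/2 mice at 2 w (15.7% of all probes called), 6 at 4 w (14.8%), 6 at 8 w with 1 lower (24.0%) and 6 at 9 w (27.7%). In B6 mice 3 were higher and 1 lower at 2 w (13%), 3 were higher and 1 lower at 4 w (15.7%), 6 were higher and 1 lower at 8 w (21.2%), and 3 were higher at 9 w (9.34%). By count 8 w had the most called probes in both strains, 7 in each. Among these 7 are Mmp14 and Mmp25, which could be tested mostly through samples of 8 w itself. The DBA/2 counts also include Mmp25 at 2 w, where no sample was above background, and at 4 w, and Mmp14 at 9 w. The calls of these 2 genes lend the weekly counts no support. In B6 mice the calls of these 2 genes turned direction under both forms of normexp. The share over all probes was also largest at 8 w in B6 mice. The comparisons of a strain share its 0 w samples, and those of B6 mice at 2 w and 9 w rest on 1 sample, which is assumed to vary like the rest. The DBA/2 arrays of 9 w lay on other slides than all other DBA/2 arrays, so slide and week cannot be told apart there.

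Mmp8, the collagenase stored in neutrophil granules, showed the widest range of the tested genes. Its probe lies at chr9:7568238-7568297 (mm8 in the files, as for the other probes). In DBA/2 mice its scaled signal was 117 and 109 at 0 w, 420.0 and 378 at 2 w, 255 and 257 at 4 w, 652 and 640 at 8 w, and 208 and 181 at 9 w. In B6 mice it was 54.4 and 50.9 at 0 w, 162 at 2 w, 130 and 108 at 4 w, 529 and 464 at 8 w, and 167 at 9 w. Every later sample lay above both 0 w samples of its strain, and the 8 w samples were the highest of each strain. The level did not climb steadily, since 4 w lay below 2 w in both strains. The change from 0 w to the mean of 4 w and 8 w was 1.85 ± 0.10 (SE) in DBA/2 mice and 2.20 ± 0.10 in B6 mice on the log2 scale (limma, adjusted p = 2.22e-06 and 1.46e-06). Both were called in all 15 alternatives and with each sample left out in turn. At 8 w alone it was 2.52 in DBA/2 mice and 3.24 in B6 mice, which are 5.73-fold and 9.42-fold.

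Mmp9, the gelatinase that cuts denatured collagen and basement membrane, was measured by 2 probes, the brighter at chr2:164646325-164646384 and the other at chr2:164646008-164646067. In DBA/2 mice the brighter probe, with 10 spots per array, gave 52.3 and 48.8 at 0 w, 114 and 103 at 2 w, 159 and 143 at 4 w, 244 and 204 at 8 w, and 132 and 118 at 9 w. The B6 samples gave 72.3 and 67.1 at 0 w, 103 at 2 w, 99.5 and 92.8 at 4 w, 313 and 285 at 8 w, and 183 at 9 w. All later samples were above those at 0 w in each strain, but the B6 samples at 2 w and 4 w lay close to the 0 w level. The DBA/2 change was 1.10, 1.58, 2.14 and 1.31 on the log2 scale in the order of the weeks from 2 w to 9 w. The B6 change was 0.56, 0.46, 2.10 and 1.39. All 8 were called, those of B6 mice at 2 w and 4 w with adjusted p = 0.0305 and 0.0266 in limma. With each B6 week counted as 1 sample these 2 were not (adjusted p = 0.164 and 0.313). The other Mmp9 probe rose by 1.03, 1.58, 2.20 and 1.45 in DBA/2 mice. In B6 mice it rose at 8 w (1.78) and, in a single sample, at 9 w (1.11, adjusted p = 0.0196, or 0.0815 with each B6 week counted as 1 sample), while its values of 0.26 at 2 w and 0.27 at 4 w did not pass (adjusted p = 0.592 and 0.451).

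Mmp25, a leukocyte enzyme anchored in the membrane, was dim. It was well above background in 4 of 18 samples, namely both DBA/2 8 w samples (17.5 and 14.1), DBA/2 4 w replicate 1 (10.2) and B6 8 w replicate 1 (13.9). In all other samples it lay between 2.96 and 9.56 and was not well above background. The probe passed the filter only through the 4 samples named, so the p-values below lend its rise no support. The DBA/2 8 w samples were at least 1.22-fold higher than at 0 w (limma, adjusted p = 0.000357), where the bound sets their mean against the dimmest signal that passes as above background. The probe was also called at 2 w and 4 w in DBA/2 mice (adjusted p = 0.011 and 0.00532) and at 8 w in B6 mice (0.0029), but no fold is given there. At 2 w no sample was well above background, and in the other groups 1 of 2 was, with a bound under 1. The direction in B6 mice at 8 w was the reverse under normexp (log2 -0.81 and -0.56 in its 2 forms).

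**Figure D1:**
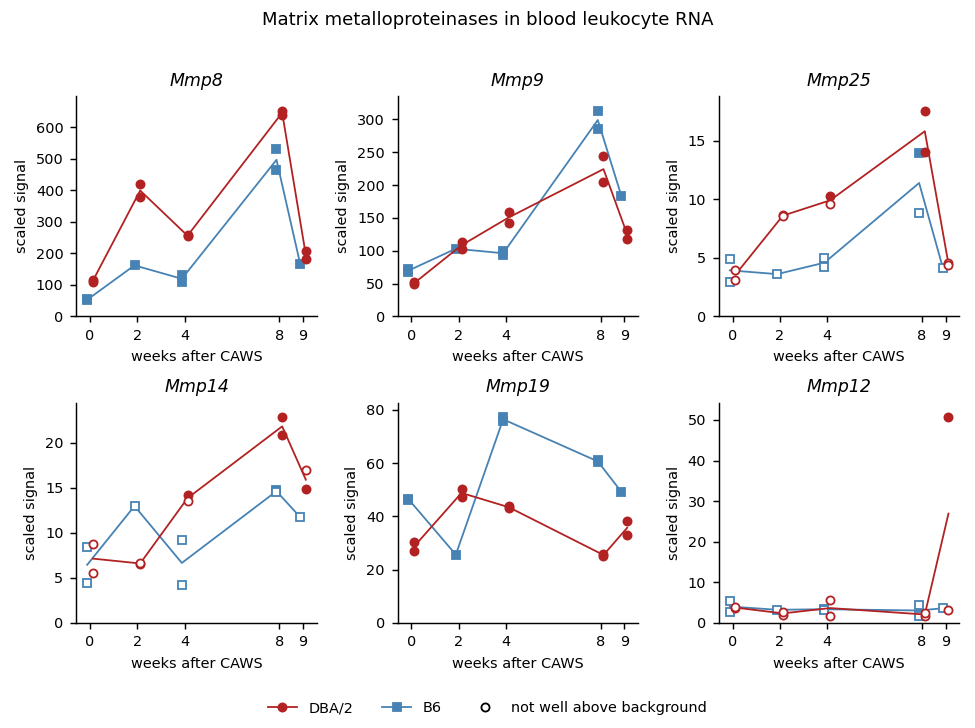
Scaled signal (linear axis from 0, own range per gene) against week after CAWS administration for the main probe of each metalloproteinase. Each point is 1 sample of DBA/2 (circles) or B6 mice (squares), open points are not well above background, and lines join the group means. Mmp8 and Mmp9 are highest at 8 w in both strains, while Mmp12 is above background in 1 sample only.

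Mmp14, the membrane-bound collagenase that also activates other metalloproteinases, was well above background in 5 samples. These were DBA/2 8 w (22.8 and 20.8), 1 sample each of DBA/2 4 w (14.2) and 9 w (14.9), and B6 8 w replicate 1 (14.8). At 0 w its signal lay between 4.45 and 8.77 in the 4 samples of both strains, none well above background. The probe passed the filter only through the 5 samples named, so the p-values below lend its rise no support. The DBA/2 samples of 8 w were at least 1.69-fold above those of 0 w (limma, adjusted p = 0.0118), and the bound for 9 w was 1.23-fold (0.0443). The bound at 9 w rests on a group of which 1 of 2 samples was above background, and that call held in 7 of 18 fits that left out 1 sample (adjusted p up to 0.237) and in 10 of 13 alternatives. B6 8 w was at least 1.06-fold higher (0.0442), also with 1 of 2 samples above background. It held in 7 of the 18 fits and was lost with each B6 week counted as 1 sample (0.0687), and its direction turned under both forms of normexp (-0.62 and -0.41 on the log2 scale). The other Mmp14 probe was above background in 1 sample and could not be tested.

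Mmp19 did not follow Mmp8 and Mmp9. In DBA/2 mice its signal was 30.3 and 27.2 at 0 w, 47.3 and 50.3 at 2 w, 43.1 and 43.8 at 4 w, 25.1 and 25.9 at 8 w, and 33.1 and 38.3 at 9 w. B6 mice had 46.7 and 46.2 at 0 w, 25.6 at 2 w, 77.2 and 75.7 at 4 w, 60.3 and 61.0 at 8 w, and 49.2 at 9 w. The DBA/2 samples were high at 2 w and 4 w and back below the 0 w samples at 8 w, while the B6 samples were low at 2 w and high at 4 w. In DBA/2 mice it rose by 0.77 ± 0.09 (SE) at 2 w and 0.60 ± 0.09 at 4 w on the log2 scale (limma, adjusted p = 0.000662 and 0.00213). The B6 change was -0.86 ± 0.11 at 2 w, in a single sample, and 0.72 ± 0.09 at 4 w, with adjusted p = 0.000627 and 0.000786. The B6 rise of 0.39 at 8 w (0.0136) turned to -0.32 and -0.17 under the 2 forms of normexp. With each B6 week counted as 1 sample, the B6 changes at 4 w and 8 w were no longer called (adjusted p = 0.0915 and 0.232).

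Mmp12, the macrophage elastase, was well above background in DBA/2 9 w replicate 1 alone, at 50.7. Replicate 2 of that group had 3.19, and the other 16 samples lay between 1.71 and 5.58. This one value rests on 1 spot of 1 array, and no test was made.

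The called changes of the inhibitors lay between -0.67 and 0.99 on the log2 scale. Timp2, which blocks gelatinases and also takes part in the activation of pro-Mmp2 by Mmp14, was measured by a probe at chr11:118117922-118117981. It had a signal of 183 and 185 in DBA/2 mice at 0 w, 264 and 233 at 2 w, 364 and 369.8 at 4 w, 283 and 264 at 8 w, and 226 and 223 at 9 w. B6 mice had 209 and 214 at 0 w, 200.3 at 2 w, 134 and 133 at 4 w, 246 and 229.6 at 8 w, and 244 at 9 w. The DBA/2 samples of 4 w were the highest and the B6 samples of that week the lowest of all 18. Timp2 rose in DBA/2 mice by 0.43, 0.99, 0.57 and 0.28 on the log2 scale from 2 w to 9 w (limma, adjusted p = 0.00696, 4.86e-05, 0.000799 and 0.0279). The 9 w call was lost in 4 of 14 alternatives, among them each B6 week counted as 1 sample (0.0814), and in 4 of 18 fits that left out 1 sample. The B6 samples showed a fall at 4 w, of -0.67 ± 0.08 (SE) with an adjusted p of 0.000677. The other B6 weeks gave -0.08, 0.17 and 0.20 at 2 w, 8 w and 9 w and did not pass. Within replicate 1 and replicate 2 alone, the 4 w change was 0.99 and 1.00 in DBA/2 mice and -0.64 and -0.69 in B6 mice. With each B6 week counted as 1 sample the fall in B6 mice at 4 w had an adjusted p of 0.0773.

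Timp1, a secreted inhibitor that many cells make under inflammatory stimuli, kept within a narrow range in DBA/2 mice. Its signal was 267 and 242 at 0 w, 268 and 243 at 2 w, 275 and 263 at 4 w, 189 and 194 at 8 w, and 279 and 279 at 9 w. B6 mice had 395 and 392 at 0 w, 523 at 2 w, 486 and 447 at 4 w, 271 and 266 at 8 w, and 341 at 9 w. The 8 w samples were the lowest of each strain. The fall from 0 w to 8 w was called in both strains, at -0.41 ± 0.08 (SE) in DBA/2 mice and -0.55 ± 0.08 in B6 mice (limma, adjusted p = 0.00609 and 0.00132), the latter with 0.0738 when each B6 week was counted as 1 sample. Beside it, the median over all probes at 8 w was -0.18 and -0.04. Before scaling, the B6 signal was 288 and 279 at 0 w and 406 and 381 at 8 w. The B6 fall thus rests on the scaling. In DBA/2 mice the signal before scaling was 339 and 310 at 0 w and 221 and 214 at 8 w. The single B6 2 w sample was higher by 0.41 (0.0263), which was not called with each B6 week as 1 sample (0.165). The other Timp1 probe was above background in 1 sample only, so these values rest on the brighter probe alone, without a second reading of the gene.

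Timp3, which is bound to the matrix and also inhibits ADAM proteases, was well above background in all 10 DBA/2 samples, at 23.1 to 52.7. In B6 mice its signal was 11.1 to 22.3, and it was above background in 1 of the 8 samples and on 1 of the 2 arrays of another. The ranges of the strains lay next to each other without overlap, and the share of all probes of which this holds was not counted. At 0 w the strain difference of 0.75 on the log2 scale was not called. It turned to -0.45 and -0.34 under the 2 forms of normexp. No change with the weeks passed the test in either strain, the closest being 0.70 ± 0.33 (SE) at 2 w in DBA/2 mice (limma, adjusted p = 0.212).

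**Figure D2:**
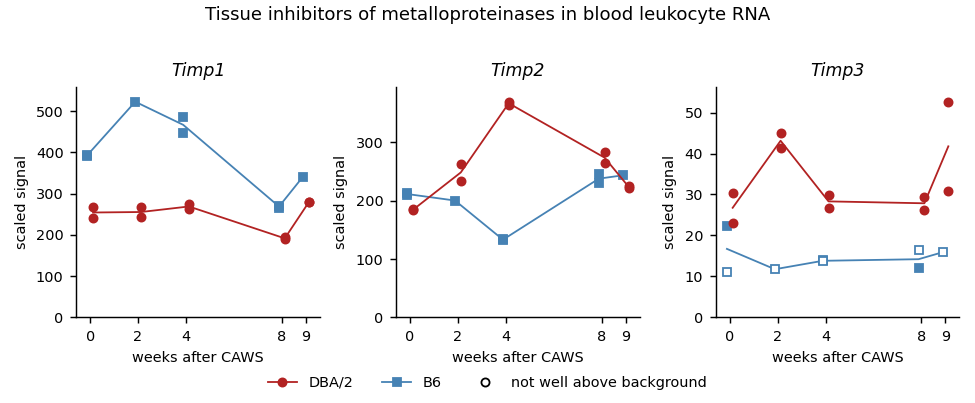
Scaled signal (linear axis from 0) against week after CAWS administration for the main probe of Timp1, Timp2 and Timp3, with 1 point per sample of DBA/2 (circles) or B6 mice (squares), open where not well above background, and lines through the group means. The filled B6 point of Timp3 at 0 w was above background on 1 of its 2 arrays. Timp2 parts at 4 w, with 364 and 369.8 in DBA/2 mice and 134 and 133 in B6 mice.

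The strains were then compared in their change from 0 w to the mean of 4 w and 8 w, taking DBA/2 minus B6. Of the 9 probes 3 differed, all higher in DBA/2 mice (both Mmp9 probes and Timp2), against 13.2% of all probes. Timp2 differed by 1.03 ± 0.10 (SE) on the log2 scale (limma, adjusted p = 0.000205), from a DBA/2 change of 0.78 and a B6 change of -0.25. It was called in 14 of 15 alternatives, with 0.0982 in the other, and with each of the 18 samples left out. The Mmp9 probes differed by 0.58 ± 0.14 and 0.86 ± 0.24 (0.0287 and 0.0432). These calls were lost with each B6 week counted as 1 sample (0.187 and 0.173) and in 7 and 13 of the 18 fits that left out 1 sample. For Mmp8 the difference was -0.35 ± 0.14 (0.156), which passed with the replicate number, the same split as the scan day, as a block (0.0372). The values of Mmp14, Mmp19, Mmp25, Timp1 and Timp3 did not pass, with adjusted p between 0.0758 and 0.974. With SE of 0.10 to 0.47, these values do not show that the strains act alike.

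At 4 w alone the difference was called for 3 probes, against 11.9% of all probes. Timp2 differed by 1.66 ± 0.11 (limma, adjusted p = 2.1e-05) and was called in all 15 alternatives and with each sample left out. The Mmp9 probes differed by 1.11 ± 0.17 and 1.32 ± 0.28 (0.00233 and 0.0138), or with 0.0579 and 0.0987 with each B6 week counted as 1 sample. At 8 w alone 1 probe was higher and 2 were lower in DBA/2 mice, against 17.5%. Timp2 differed by 0.40 ± 0.11 (0.0386), Mmp8 by -0.72 ± 0.17 (0.0165) and Mmp19 by -0.56 ± 0.13 (0.0149). Each was lost with each B6 week counted as 1 sample (0.221, 0.0824 and 0.151). The differences of Mmp8 and Mmp19 turned under both forms of normexp, to 0.14 and 0.02 for Mmp8 and to 0.27 and 0.20 for Mmp19. The brighter Mmp9 probe differed by 0.04 ± 0.17 at 8 w (0.903). The B6 0 w samples, which enter the differences at 4 w and at 8 w, and the B6 8 w samples are those with raised hepatocyte signal. At B6 4 w the hepatocyte sum was 436 and 446, against 19298 and 19700 at B6 0 w. The part of this signal in the differences was not tested.

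**Figure D3:**
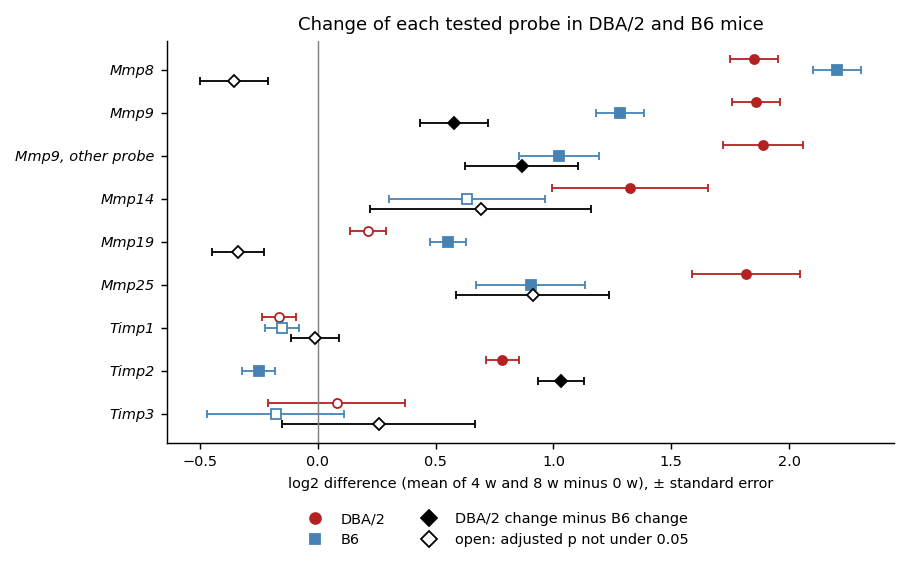
Change on the log2 scale from 0 w to the mean of 4 w and 8 w for each tested probe in DBA/2 (circles) and B6 mice (squares), and the strain difference (diamonds), with bars of 1 SE. Open symbols did not pass the test. Timp2 has a change of 0.78 in DBA/2 mice and -0.25 in B6 mice, while the values of Mmp14 and Mmp25 come from signals near background.

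At 0 w, right after the last injection, 5 of the 9 probes differed between the strains, against 32.7% of all probes. Mmp8 was 1.10 ± 0.12 (SE) higher on the log2 scale in DBA/2 mice (limma, adjusted p = 9.79e-05). The Mmp9 probes were lower in DBA/2 mice by 0.46 ± 0.12 and 1.17 ± 0.20 (0.0136 and 0.00149), Mmp19 by 0.70 ± 0.09 (0.000298) and Timp1 by 0.63 ± 0.08 (0.00034). For these genes the 2 samples of each strain did not overlap. They were named for passing the test, and the share of all probes without overlap was not counted. With each B6 week counted as 1 sample the brighter Mmp9 probe no longer passed (0.0976). No slide held 0 w arrays of both strains, so slide and strain cannot be told apart here. The change of each strain is measured from these unequal starting levels.

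Cell type markers moved along with the weeks. The samples held markers of T cells (9 to 10 of 10 well above background in a sample), B cells (7 to 8 of 8), NK cells, monocytes, neutrophils (10 to 11 of 11), platelets and erythroid cells. All 11 neutrophil markers were higher at the mean of 4 w and 8 w in DBA/2 mice (median 1.97 on the log2 scale) and in B6 mice (1.38), and 4 were higher in the strain difference. Their summed signal ran from 40410 and 40856 at DBA/2 0 w to 262926 and 292508 at 8 w, and from 22053 and 22093 at B6 0 w to 161810 and 162544 at 8 w. Such a sum, here and for the other lists, is set mostly by its brightest genes. S100a9 alone ran from 18840 to 264017 over the samples, while S100a8, the next brightest neutrophil marker, reached 19047. Of 10 tested markers of secondary and tertiary neutrophil granules 8 were higher in each strain, while in the strain difference 2 were higher and 2 lower. Of 6 primary granule or precursor markers, Ctsg was above background in all 18 samples, Mpo in 13, Prtn3 in 6, Ms4a3 in 2 and Elane and Fcnb in 0, and of the 4 tested 1 was higher in DBA/2 mice and 0 in B6 mice. Thus the 8 w peak of Mmp8 and Mmp9 came with the highest neutrophil signal in both strains, and its part in their change was not tested.

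Monocyte and macrophage markers were counted next. Of 12 monocyte markers 10 were higher in DBA/2 mice and 4 in B6 mice, and the strain difference was called for 8 higher and 1 lower. Their sum rose from 4863 and 5148 at 0 w to 9985 and 10532 at 4 w in DBA/2 mice, while it was 5046 and 5267 at 0 w and 6565 and 6604 at 4 w in B6 mice. Of 10 macrophage markers 7 were higher in DBA/2 mice, whereas 1 was higher and 5 were lower in B6 mice. At 4 w their sum was 1981 and 2219 in DBA/2 mice and 688 and 778 in B6 mice, against 996 and 1363, and 1101 and 1211, at 0 w. At 4 w, where Timp2 and Mmp9 differed between the strains, markers were compared in the same way. The change from 0 w to 4 w was taken as DBA/2 minus B6, for which 11.9% of all probes were called. In it 9 of 12 monocyte, 7 of 10 macrophage and 8 of 11 neutrophil markers were higher. So were 5 of 7 NK cell and 11 of 13 hepatocyte markers. None of these lists had one lower. Of 10 secondary and tertiary granule markers, however, 3 were higher and 1 was lower, and 2 of 7 erythroid and 1 of 10 T cell markers were lower. Their part in the results was not tested. All 13 hepatocyte markers were lower in DBA/2 than in B6 mice at 0 w. Relative to 0 w, 12 were lower in B6 mice at 4 w and 11 at the mean of 4 w and 8 w. In DBA/2 mice 2 of the 13 were higher at 4 w and 0 lower. Of 10 T cell markers 6 were lower in DBA/2 mice and 4 in B6 mice, and of 8 B cell markers 6 were lower in DBA/2 mice and 0 in B6 mice. NK cell markers went opposite ways, with 5 of 7 higher in DBA/2 mice and 5 of 7 lower in B6 mice. Of 10 platelet markers 6 were higher in DBA/2 mice and 8 in B6 mice, of 7 erythroid markers 1 was higher and 1 lower in DBA/2 mice and 4 were lower in B6 mice, and of 9 endothelial or stromal markers 1 was higher in DBA/2 mice and 2 in B6 mice.

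**Figure D4:**
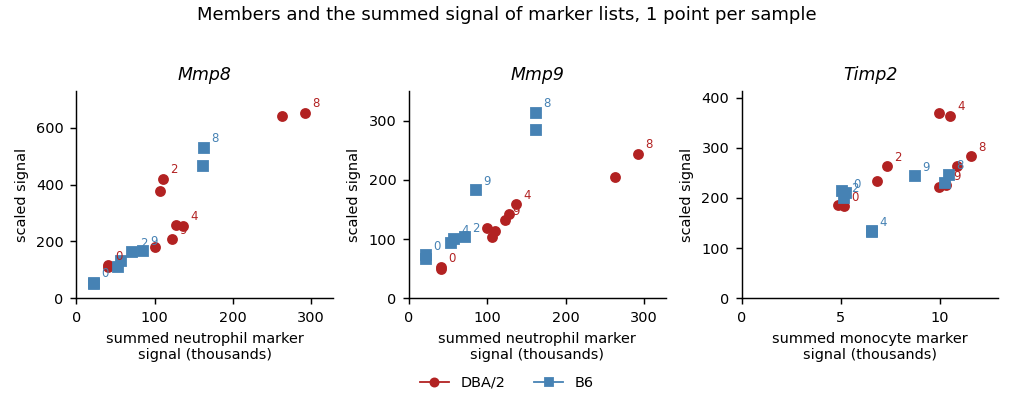
Scaled signal of Mmp8 and Mmp9 against the summed signal of the neutrophil markers, and of Timp2 against that of the monocyte markers, with 1 point per sample of DBA/2 (circles) or B6 mice (squares) and the week beside 1 point of each group. Mmp8 and the neutrophil sum are both highest at 8 w in each strain, while the Timp2 points of 4 w lie far apart, with 364 and 369.8 in DBA/2 mice and 134 and 133 in B6 mice. The neutrophil sum is set mostly by S100a9.

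Other genes of the pathway were counted in full. Of 16 other metalloproteinases and Timp4 with a probe, 5 could be tested, and limma called none at the mean of 4 w and 8 w in either strain or in the strain difference, with 0 at an unadjusted p under 0.05 as well. Of single weeks, Mmp17 was lower in B6 mice at 8 w (-0.94 ± 0.23 (SE), adjusted p = 0.0182), and the strain difference of that week was 1.16 ± 0.33 (0.0378). At 9 w 2 of the 5 had an unadjusted p under 0.05 in each strain, and none was called. Of 15 regulators and activators of metalloproteinases tested, 7 were higher in DBA/2 mice, 5 were higher and 1 was lower in B6 mice, and the strain difference was called for 3 higher and 1 lower, beside 22.9%, 15.0% and 13.2% of all probes. The gene with the largest DBA/2 change was Lcn2, whose product binds Mmp9 in neutrophil granules. It was at least 5.51-fold higher in DBA/2 mice and at least 3.48-fold higher in B6 mice, with no 0 w sample above background. Cd63, a tetraspanin that binds Timp1, rose by 1.13 ± 0.07 (SE) on the log2 scale in DBA/2 mice and 0.93 ± 0.07 in B6 mice. Plaur, the receptor of urokinase, and Furin, the convertase that activates Mmp14, rose by 0.98 ± 0.11 and 0.76 ± 0.09 in DBA/2 mice, and their strain differences were 0.72 ± 0.16 and 0.59 ± 0.13 (adjusted p = 0.018 and 0.0156). Serpinb2, an inhibitor of plasminogen activators, rose by 0.69 in DBA/2 mice and 1.02 in B6 mice, and Cd44, which holds Mmp9 at the cell surface, by 0.58 and 0.53. The others in the strain difference were Plg (2.00) and Thbs1 (-0.88). Plg encodes plasminogen of the liver, and its B6 change of -1.57 was measured from the 0 w samples with hepatocyte signal.

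Among the ADAM proteases, membrane-bound relatives that shed surface proteins, 4 of 10 tested were higher in DBA/2 mice and 2 in B6 mice, and 1 was higher and 1 lower in the strain difference. The shares of all probes are those just given. Adam15 rose by 1.43 ± 0.24 (SE) in DBA/2 mice on the log2 scale, and its strain difference was 1.30 ± 0.34 (limma, adjusted p = 0.0361). Adam8, a protease of granulocytes and monocytes, rose by 1.25 ± 0.06 in DBA/2 mice and 1.15 ± 0.06 in B6 mice. Adam17, the sheddase of tumor necrosis factor, rose by 0.58 ± 0.12 and Adam19 by 0.52 ± 0.16 in DBA/2 mice. Adam9 rose by 0.56 in B6 mice and differed between the strains by -0.43 ± 0.11 (0.035).

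The genes whose pattern over the 18 samples was most like that of a member were sought among 9692 genes well above background in all samples, by Pearson's r of the log2 values. For Mmp8 they were Cstdc6 (0.965), B430306N03Rik (0.960) and S100a9 (0.955), the last a neutrophil marker. For Mmp9 they were Pilra (0.972), Slpi (0.969) and Stfa2l1 (0.965). For Timp2 they included Klf10 and Rap1gap2, each with r = 0.886. For Mmp19 they included Mctp1 (0.934) and Rap2a (0.922), and for Timp1 they were Alpi (0.981), Vmn1r192 (0.978) and 1700021J08Rik (0.977). The samples of a group, slide and scan day share these patterns, so that the values are descriptions.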

How the data were processed

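The authors labelled leukocyte RNA with Cy3, hybridized it to single-color Agilent whole mouse genome arrays and extracted the images with Feature Extraction (9.5.3.1 per the file headers). The deposited intensity of each spot is background-subtracted and detrended on the linear scale. The 19 arrays hold 18 RNA samples in 10 groups, since B6 0 w replicate 2 was hybridized to 2 arrays, which were averaged. Outlier and control spots were left out, spots of a probe were averaged, and log2 signals were set relative to the 75th percentile of their array, taken from 11536 probes that passed as well above background everywhere. Those that passed in at least 2 samples, 22939 probes, entered a fit by limma 3.58.1 (lmFit, eBayes; R 4.3.3) with a mean per group, leaving 8 residual degrees of freedom, and p-values were adjusted over all probes by Benjamini-Hochberg with a threshold of 0.05. A bound, given as at least N-fold, was computed where a group had no array above background and the group compared with it had some. Log2 values of such a probe rest partly on signal not above background. Scripts were tested on simulated data with 200 changed probes. The number of arrays limits the precision. Probe positions in the files are on mm8.

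The members and lists were chosen with earlier results of these data known. By the rule for named genes, every member probe is given, the main one being the brightest, and of each pathway list up to 6 genes called in the DBA/2 change or the strain difference, in order of the DBA/2 change. Genes named outside it (Plg, Thbs1, Mmp17) were chosen after their values were seen. Alternatives were another background correction (normexp), normalizations, filters, blocks for slide and replicate number, the deposited value table and left-out samples. Counting each B6 week as 1 sample, normexp without spots whose background exceeds their signal, and 4 w in place of the mean of 4 w and 8 w were chosen after seeing the data. The methods name no test for the arrays. The likeness values of 2 genes are not reported here.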

Additional observations from a re-analysis of the deposited data

Results flagged for a closer look

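The following results drew attention because the change from 0 w differed between DBA/2 and B6 mice by limma's test of that difference itself. Each value is DBA/2 minus B6 on the log2 scale. Timp2 differed by 1.03 for the mean of 4 w and 8 w, by 1.66 at 4 w and by 0.40 at 8 w. The brighter Mmp9 probe differed by 0.58 for the mean and by 1.11 at 4 w, and the other Mmp9 probe by 0.86 and 1.32. Mmp8 differed by -0.72 and Mmp19 by -0.56 at 8 w, and both were of the other sign under normexp. No group held enough samples for a single sample to be tested as standing apart.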

How the results depend on the processing

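Of 2768 comparisons of a single member value with its alternatives, 2482 kept direction and side of the threshold, 218 were no longer called, 26 became called and 42 turned direction. The main counts of called member probes were 6 in DBA/2 mice, 6 in B6 mice, 3 in the strain difference and 5 at 0 w. Normexp with an offset of 50 gave 3, 1, 0 and 1. On 4 arrays that fit was set by 4 to 16 spots whose background exceeded their signal, and without them the strain difference counted 5 and 0 w counted 9. The strain difference counted 1 with no filter on dim probes, 6 with slide as a random block and 1 with each B6 week as 1 sample, where B6 mice counted 2. Leaving out 1 sample gave 5 to 7 in DBA/2 mice, 4 to 6 in B6 mice, 1 to 4 in the strain difference and 4 to 6 at 0 w. The count of 1 came without B6 0 w, 4 w or 8 w replicate 2, DBA/2 0 w replicate 1 or 2, or DBA/2 4 w replicate 1. Slide as a fixed block could not be fitted for the strains at 0 w or for the DBA/2 change at 9 w. The cause was not tested.

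Over all probes, normexp called 586, 179, 90 and 1182 in those comparisons against 5246, 3445, 3029 and 7495. Without the spots named it called 5441, 13430, 8088 and 15090, of which 10.6% were higher in B6 mice, 86.1% in the strain difference and 13.2% at 0 w, so that its member counts stand against that background. No filter called 3064, 1644, 1260 and 5266, slide as a random block 8024, 5939 and 5499 in the comparisons other than 0 w, and each B6 week as 1 sample 651 in B6 mice, 878 in the strain difference and 4537 at 0 w. The share of DBA/2 calls that were higher was 42.9%, or 53.8% with quantile normalization, 54.1% with median scaling and 63.0% with the percentile over all probes. In B6 mice it was 48.5%, 59.3%, 56.2% and 65.3%. These scalings moved the DBA/2 median over all probes from -0.14 to as high as -0.02.

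A fit with the replicate number as a block was made, though the numbers are not shown to pair samples: deviations of 28 pairs of groups correlated between -0.01 and 0.46, over 0.1 in 12. The replicate block gave 6, 6, 4 and 5 called probes, the added call being the strain difference of Mmp8 (-0.35, adjusted p = 0.0372), and no other call changed among the 85 member values followed.

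Values that turned direction follow, on the log2 scale, under normexp and then, where it turned too, without the spots named. Mmp8 gave 0.28 and 0.20 in the strain difference and 0.14 and 0.018 in that at 8 w. Mmp14 gave -0.62 and -0.41 in B6 mice at 8 w, -0.30 and -0.21 for the B6 mean, and -0.63 and -0.53 at 0 w. Mmp19 gave -0.32 and -0.17 in B6 mice at 8 w, -0.0046 for the B6 mean, 0.094 and 0.083 in the strain difference, and 0.27 and 0.20 in that at 8 w. Mmp25 gave -0.050 in DBA/2 mice at 4 w, -0.81 and -0.56 in B6 mice at 8 w, and -0.38 and -0.25 for the B6 mean. Timp1 gave 0.000171 and 0.0030 in the strain difference, and 0.024, 0.020 and 0.028 under quantile normalization, median scaling and the percentile over all probes. Timp3 gave -0.045 for the DBA/2 mean, and -0.45 and -0.34 at 0 w. With array 1 of B6 0 w replicate 2 alone, the 0 w values of Mmp14 and Mmp25 were -0.12 and 0.13. Leaving out 1 sample, the 0 w value ran from -0.28 to 0.64 for Mmp14 and from -0.47 to 0.26 for Mmp25. Likewise Timp3 ran from -0.68 to 0.32 for the B6 mean, from -0.24 to 0.76 in the strain difference and from -0.12 to 0.28 for the DBA/2 mean, and Timp1 from -0.082 to 0.060 in the strain difference. Signal near background limits Mmp14, Mmp25 and Timp3.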
